A study of Mus musculus with 12 samples.

Results

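This account covers 7 noncoding RNA genes known as targets of the transcription factor p53: the microRNA genes Mir34a, Mir34b, Mir34c and Mir145a and the long noncoding RNA (lncRNA) genes Trp53cor1, Pvt1 and Neat1. They were followed in ChIP-seq peak lists from the back skin of mice aged 8 to 10 weeks. The peaks described were chosen by position, as those whose midpoint lay inside one of these genes or within 50 kb of its start or end, and 21 of the 9474 peaks in 3 lists met this rule. The genes were selected on measured values, with the called peaks of these lists in view (among them the WT p53 peak upstream of Mir34a), so counts and values are a description and carry no test.

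The antibodies were against p53 and against histone H3 trimethylated at lysine 4 (H3K4me3), which marks promoters in use. By the labels the 12 samples form 6 pairs: K17KO skin with the p53 antibody, wild-type (WT) skin with the p53 antibody and WT skin with the H3K4me3 antibody, in each case a pair at T0 and another at 6 h. The treatment given for all 12 samples is ionizing radiation at 5 Gy, including those named T0. The sources used here do not spell out the K17KO genotype or say whether paired samples are separate animals. There is 1 peak list each for K17KO p53, WT p53 and H3K4me3, and none names a library, time or replicate, so T0 and 6 h could not be compared and no value has a replicate error. The second p53 list names no genotype and was taken as WT. The lists hold 1101, 2909 and 5464 peaks, with a median of 11, 7 and 148 fragments at the summit over a background of 1.39, 0.992 and 90.7. They do not name the control they were called against. H3K4me3 peaks are regions above that control, which need not be all regions with the mark.

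After DNA damage p53 binds paired 10-base elements in DNA and raises transcription nearby, and some of the genes it acts on make no protein. A microRNA pairs with messenger RNAs mainly through its seed, bases 2 to 8, and lowers their output, and the miR-34 family is known for repressing cell cycle and survival genes. Trp53cor1, also called lincRNA-p21, lies beside Cdkn1a, the gene of the cyclin-dependent kinase inhibitor p21. Pvt1 lies beside the growth regulator Myc, and Neat1 is the RNA scaffold of nuclear paraspeckles. The microRNA of Mir145a is abundant in smooth muscle.

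The mature microRNAs of the miR-34 genes are shown because only 1 of these loci had peaks although their products share seeds. The sequences are from RefSeq (GRCm38.p6), 5′ to 3′, with the seed in capitals.
mmu-miR-34a-5p: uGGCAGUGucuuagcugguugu
mmu-miR-34b-5p: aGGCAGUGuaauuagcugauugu
mmu-miR-34a-3p: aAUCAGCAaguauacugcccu
mmu-miR-34b-3p: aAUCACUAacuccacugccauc
mmu-miR-34c-3p: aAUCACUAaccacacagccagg
The 5p products of Mir34a and Mir34b have the same seed, and the 3p products of Mir34b and Mir34c share another that Mir34a lacks. No 5p product of Mir34c was among the RefSeq mature sequences used, so none is shown, although the hairpin of Mir34c holds the 5p seed once. Of the 1738 mature microRNAs in the table, miR-449a-5p and miR-449c-5p carry the 5p seed too. Their genes had no p53 peak of either genotype within 50 kb and 3 H3K4me3 peaks.

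Of the 7 genes, 1 had a K17KO p53 peak (1 peak), 2 had a WT p53 peak (5 peaks) and 4 had an H3K4me3 peak (15 peaks). By the same rule 7.56% of 49943 RefSeq genes had a K17KO p53 peak, 15.4% a WT p53 peak and 32.9% an H3K4me3 peak. Nothing is read from the members' counts against these shares, because the rule used the same peaks. Mir34a was the only member with peaks of all 3 lists, which 0.879% of all genes and 0.651% of 1228 microRNA genes had. Trp53cor1 had WT p53 and H3K4me3 peaks, Pvt1 and Neat1 had H3K4me3 peaks alone, and Mir34b, Mir34c and Mir145a had none.

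**Figure D1:**
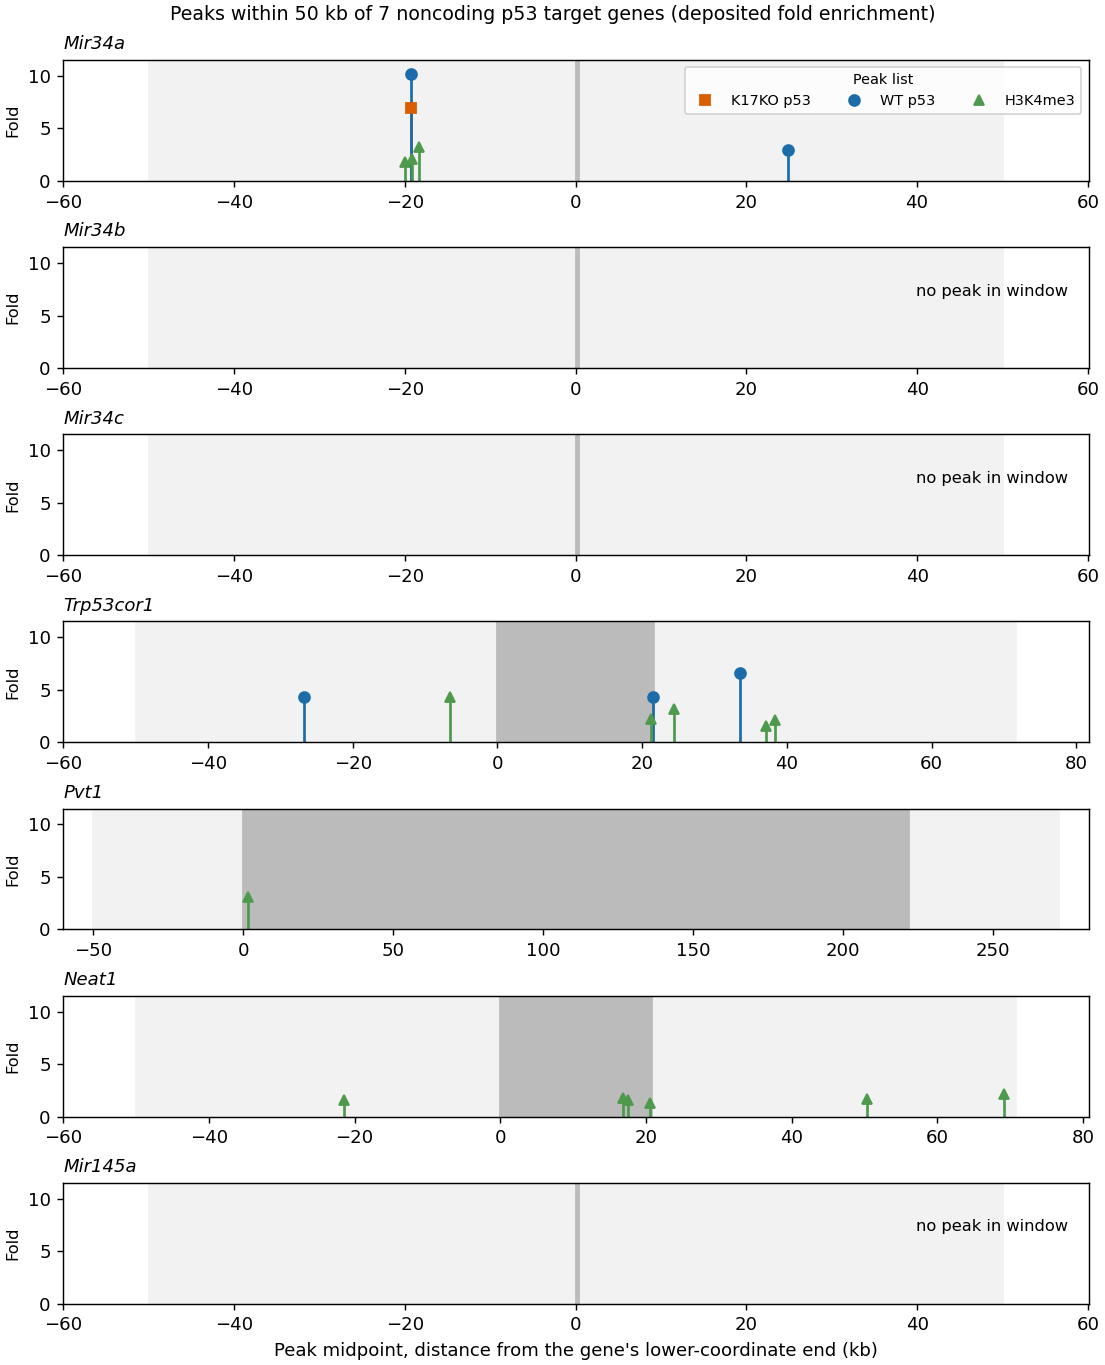
Peaks of the 3 lists around each gene, with the midpoint's distance from the lower-coordinate end of the gene on the x axis (kb) and the deposited fold enrichment on the y axis. Dark grey marks the gene and light grey the 50 kb on either side. All 3 lists meet about 19.3 kb below Mir34a, Trp53cor1 has 3 WT p53 peaks, and Mir34b, Mir34c and Mir145a have no peak in the window.

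Mir34a (gene ID 723848) lies on the plus strand of chromosome 4 from 150068454 to 150068555 (mm10). Its main p53 site is upstream, inside the annotated lncRNA gene Gm13067 (150029405 to 150058717), whose end lies 9.74 kb before the hairpin. The K17KO p53 peak spanned 150048931 to 150049336, a width of 406 bp, with its midpoint 19.3 kb before Mir34a. The WT p53 peak spanned 150048925 to 150049353, a width of 429 bp, and held the whole K17KO peak. The 2 summits were 10 bp apart, so both genotypes place p53 at the same position to within a small part of a peak's width. The nearest protein-coding gene, the receptor gene Gpr157, lay 38.4 kb away on the far side of Mir34a.

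The deposited fold enrichment, the pileup at the summit over the caller's background, was 6.98 in the K17KO list and 10.18 in the WT list. The K17KO peak had 26 fragments over 2.87 of background, and counting error alone allows a fold of 4.65 to 10.1 (95% exact Poisson interval on the fragments). The WT peak rested on 31 fragments over 2.14, which allows 7.02 to 14.3. These intervals overlap, and because depth and control of the lists are unknown the folds are set side by side and not compared. The intervals hold the background fixed and leave out the spread between animals.

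Within its own list the site ranked high in both genotypes. By fold it was number 20 of 1101 K17KO peaks and number 1 of 2909 WT peaks. By −log10 p, 16.89 in K17KO and 25.73 in WT, it was number 5 of the K17KO list and number 3 of the WT list. The 4 K17KO peaks with a larger −log10 p had folds of only 1.55 to 2.04, over backgrounds of 87.9 to 335 fragments. The 2 such WT peaks had folds of 3.0 to 3.24 over backgrounds of 34.5 to 50.6. In neither list did another peak exceed the Mir34a site on both measures.

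**Figure D2:**
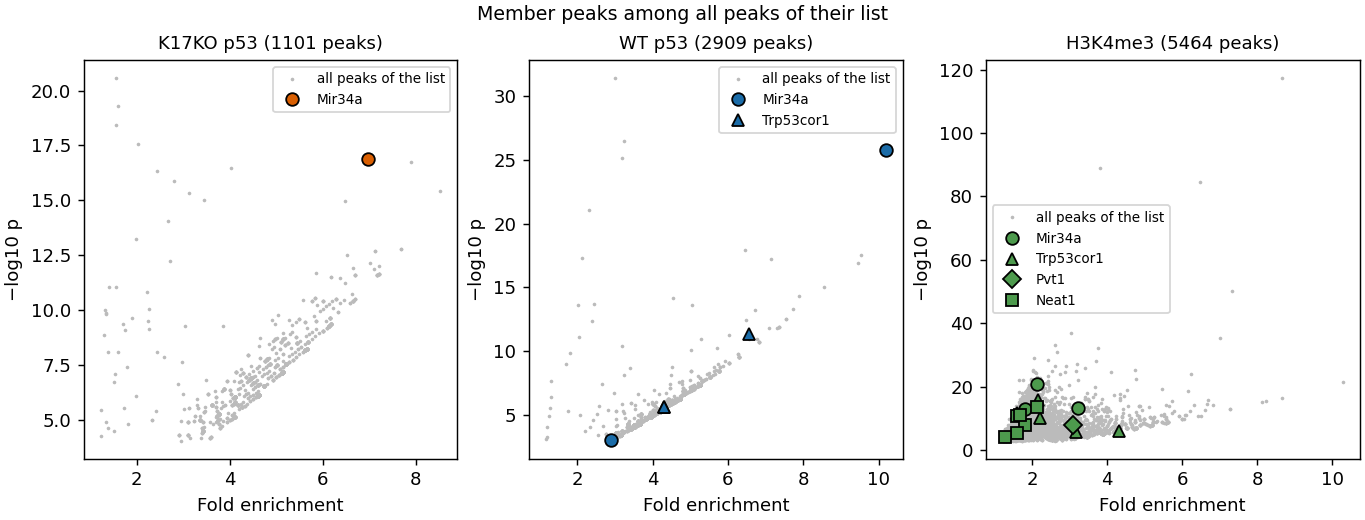
Every peak of each list (grey) by fold enrichment (x axis) and −log10 p (y axis), with the member peaks in colour by gene. The Mir34a site stands at the right edge of the WT p53 list at 10.18-fold and in the upper right of the K17KO list at 6.98-fold, and 2 of the 3 Trp53cor1 peaks coincide at 4.30-fold.

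H3K4me3 in WT skin covered the same site as a cluster of 3 peaks spanning 2062 bp. The central peak, 150048810 to 150049761, had 194 fragments over 90.7 (2.13-fold, counting interval 1.84 to 2.45), and its summit was 2 bp from the WT p53 summit and 12 bp from that of K17KO. It contained both p53 peaks entirely. The peak on the side away from Mir34a, 150048260 to 150048557, had a fold of 1.80 with 181 fragments over 100. The peak on the side of Mir34a, 150050054 to 150050321, had the highest fold of the cluster, 3.22, with 52 fragments over a much lower background of 15.4. By −log10 p the central peak was number 48 of 5464 in the H3K4me3 list, against number 1458 by fold. The H3K4me3 summit and the p53 summits thus fell on one position, with flanking H3K4me3 peaks on both sides. No H3K4me3 peak lay at the Mir34a hairpin itself.

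**Figure D3:**
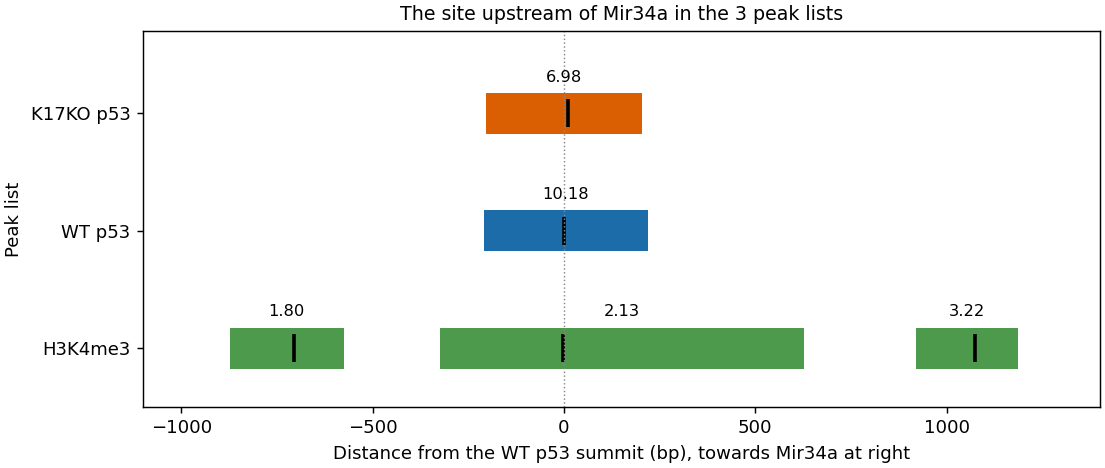
Extent of each peak at the site upstream of Mir34a, by distance from the WT p53 summit (bp, x axis) for the 3 lists (rows). Vertical ticks mark summits and numbers give the deposited fold. The K17KO and WT p53 peaks coincide within the central H3K4me3 peak.

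A second WT p53 peak in the window lay 24.8 kb beyond Mir34a, inside Gpr157 (150093270 to 150093485). It had 5 fragments over 1.07, a fold of 2.90 and a q-value of 0.42. By fold it was number 2844 of 2909 WT peaks, with tied peaks all given the best place. It was among the weakest peaks of the list and had no counterpart in the K17KO or H3K4me3 list.

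By summed difference in log2 of the highest fold per list, the noncoding gene most like Mir34a among 108 others with peaks of all 3 lists was Gm13067 (0.27). It holds the p53 peaks upstream of Mir34a and had a highest H3K4me3 fold of 3.88, against 3.22 in the window of Mir34a. Gm35183, Gm41853 and Mir5114 on chromosome 19 followed, all at 1.5. They share 1 set of peaks among themselves, with highest folds of 4.09 in K17KO p53, 8.54 in WT p53 and 2.31 in H3K4me3. Protein-coding genes were not compared in this way.

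Trp53cor1 (gene ID 100504267) lies on chromosome 17 from 29057474 to 29079126, and its upper end is 11.9 kb from the start of Cdkn1a. No K17KO p53 peak lay in its window, and the nearest was 80.8 kb away inside Cpne5 (3.23-fold, 13 fragments over 3.34). The WT list had 3 peaks there. Among 2172 lncRNA genes of 15 to 30 kb, 5.89% had a K17KO p53 peak and 15.9% a WT p53 peak by the rule. A missing K17KO peak says that no region passed the caller's threshold, not that p53 was absent. Where the background was under 2 fragments, the weakest K17KO peak had 6 fragments and the median 10, against 5 and 7 in the WT list. Whether the genotypes differ here could not be tested from the lists.

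The upper end of Trp53cor1 is the end that faces Cdkn1a. The gene positions used here carry no strand, so whether transcription starts at this end was not determined. The WT p53 peak inside Trp53cor1 spanned 29078846 to 29079102, with its summit 146 bp from that end. It had 8 fragments over 1.09, a fold of 4.30 (counting interval 2.13 to 8.01) and a q-value of 0.0498. The strongest WT p53 peak of the window, 29090757 to 29091094, lay 11.8 kb beyond the gene at the start of Cdkn1a. It had 15 fragments over 1.44, a fold of 6.57 (3.86 to 10.6) and a q-value of 1.81e-06, and was number 21 of the WT list by fold. The remaining one, 29030601 to 29030816, lay inside the lncRNA gene Gm16196 and 1.95 kb from Srsf3, a splicing factor gene. It had the same 8 fragments over 1.09 as the peak in Trp53cor1, and each was number 965 of 2909 WT peaks by fold, a tied place. The WT p53 signal of the window was therefore strongest at Cdkn1a, and the peak at the upper end of Trp53cor1 was of ordinary height for the list.

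The H3K4me3 list had 5 peaks in the window, and 24.1% of lncRNA genes of this length had any. The peak inside Trp53cor1, 29078522 to 29078873, had 78 fragments over 34.6 (2.22-fold) and overlapped the WT p53 peak there by 28 bp, with the summits 372 bp apart. At the next peak, 2.80 kb beyond the gene, 17 fragments over 4.67 gave 3.17-fold. Another lay 6.55 kb below the gene with the highest fold of the window, 4.33, on 9 fragments over 1.31. The other 2 lay inside Cdkn1a, at 1.60-fold (245 fragments over 152) and 2.17-fold (137 over 62.6). Unlike the site at Mir34a, the p53 and H3K4me3 summits at the upper end of Trp53cor1 stood apart, and the p53 peak at the start of Cdkn1a overlapped no H3K4me3 peak. Only 1368 of 32851 RefSeq promoters (250 bp before to 50 bp after a start) overlapped a peak of the H3K4me3 list. A missing H3K4me3 peak therefore does not show that the mark was absent.

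**Figure D4:**
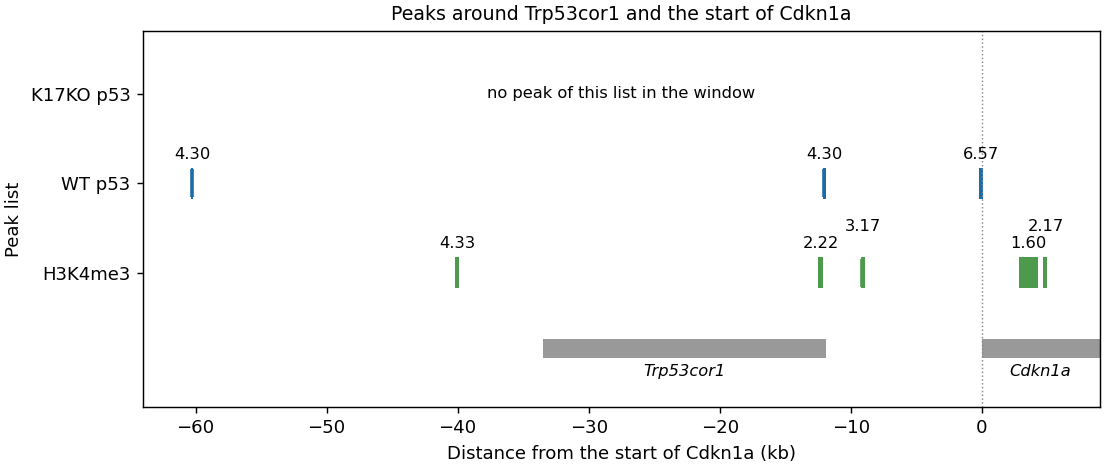
Peaks of the 3 lists around Trp53cor1, by distance from the start of Cdkn1a (kb, x axis), with the deposited fold above each. The 4.30-fold WT p53 peak sits at the upper end of Trp53cor1 and the 6.57-fold peak at the start of Cdkn1a, and the K17KO p53 list has none.

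RefSeq promoters, from 250 bp before to 50 bp after a start, were searched for the p53 decamer consensus, the 10-base unit of which a pair makes up a p53 element, on both strands. It was present in 8.36% of 32851 promoters, and at least 2 copies in 0.359%. The members' own promoters were not searched. Of 15 promoters of other genes in the windows of Mir34a, Mir34b, Mir34c, Trp53cor1 and Neat1, only 1 held it. That was a promoter of Cdkn1a, which also was the only one of the 15 to overlap a WT p53 peak (by 272 bp), while none overlapped a K17KO p53 peak. It is shown because the p53 summit falls between its 2 decamers, which are in capitals (chr17:29090729-29091028, plus strand, GRCm38.p6).
Cdkn1a promoter: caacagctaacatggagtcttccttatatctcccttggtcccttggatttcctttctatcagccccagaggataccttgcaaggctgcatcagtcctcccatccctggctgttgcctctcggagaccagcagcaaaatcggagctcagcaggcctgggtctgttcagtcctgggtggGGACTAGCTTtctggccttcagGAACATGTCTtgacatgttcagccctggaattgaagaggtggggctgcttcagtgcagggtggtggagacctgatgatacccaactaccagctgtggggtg
The decamers are separated by 12 bp. The WT p53 summit at 29090922 lay 7 bp after the end of the first and 6 bp before the start of the second. The 10 bases that follow the second decamer differ from the consensus at 1 base. A match is a description of the letters and does not show that p53 bound there.

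Pvt1 (gene ID 19296) lies on chromosome 15 from 62037986 to 62260215, so that its window of 322 kb was the widest of the set. No p53 peak of either genotype lay in it. The nearest K17KO peak was 813 kb away (5.21-fold) and the nearest WT peak 200 kb away on the far side of Myc (4.72-fold, 8 fragments over 0.906). Among 129 lncRNA genes of 150 kb or more, 6.2% had a K17KO p53 peak, 27.1% a WT p53 peak and 17.8% an H3K4me3 peak. The single H3K4me3 peak, 62039305 to 62039603, lay inside the gene 1.47 kb from the end that faces Myc. It had 29 fragments over 8.74 and a fold of 3.08 (counting interval 2.1 to 4.38). A further H3K4me3 peak just outside the window, 53034 bp from Pvt1 and 389 bp from Myc, had a fold of 1.91 on 160 fragments over 83.2.

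Neat1 (gene ID 66961) lies on chromosome 19 from 5824708 to 5845480. It had no p53 peak within 50 kb in either genotype, the nearest being 278 kb away in K17KO (5.68-fold, inside Snx15) and 235 kb away in WT (4.44-fold, inside Tmem262). The H3K4me3 list had 6 peaks in the window, the most of any member, and 3 of them were inside the gene, all in the part nearest its upper end. These had folds of 1.80 (101 fragments over 55.7), 1.60 (102 over 63.6) and 1.29 (230 over 178), the last with its midpoint 279 bp from the upper end. The lowest of the 3 was weak, with a q-value of 0.0771, and was number 5292 of 5464 in the H3K4me3 list by fold. Outside the gene the peaks lay between Malat1, another nuclear lncRNA gene, and Neat1 (1.60-fold), inside Frmd8 (1.67-fold) and inside Tigd3 (2.12-fold). The peak beside Malat1, 5803054 to 5803505, was 21.4 kb from Neat1 and close to a Malat1 promoter at 5802623 to 5802922. The peak inside Frmd8 overlapped a promoter of that gene. All 6 had folds of 1.29 to 2.12 over backgrounds of 55.7 to 178 fragments.

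Mir34b and Mir34c lie 451 bp apart on the minus strand of chromosome 9 (51103562 to 51103645 and 51103034 to 51103110). They lie between RefSeq promoters of Hoatz (51102029 to 51102328, minus strand) and Btg4 (51115751 to 51116050, plus strand). Of 1228 microRNA genes 6.76% had a K17KO p53 peak by the rule, 11.0% a WT p53 peak, 37.9% an H3K4me3 peak and 44.9% a peak of any list. The K17KO p53 peak nearest to Mir34b was 945 kb away, inside Rdx (4.63-fold, 8 fragments over 0.945). The nearest WT p53 peak was 1120 kb away (4.52-fold, 8 over 0.992). The nearest H3K4me3 peak was 328 kb away, inside Alg9 (1.35-fold). The median microRNA gene had its nearest K17KO p53 peak at 527 kb, its nearest WT p53 peak at 351 kb and its nearest H3K4me3 peak at 92.6 kb, so this pair lay farther than the median from every list.

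Mir145a lies on chromosome 18 from 61647825 to 61647894, inside the lncRNA gene Carmn. Its nearest K17KO p53 peak was 125 kb away inside Arhgef37 (5.09-fold, 14 fragments over 1.95), and its nearest WT p53 peak 138 kb away inside Afap1l1 (3.53-fold, 6 over 0.985). The nearest H3K4me3 peak was 92.3 kb away inside Csnk1a1, a casein kinase gene (1.56-fold, 282 over 180). Mir145a was thus closer than the median microRNA gene to both p53 lists and at about the median for H3K4me3.

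**Figure D5:**
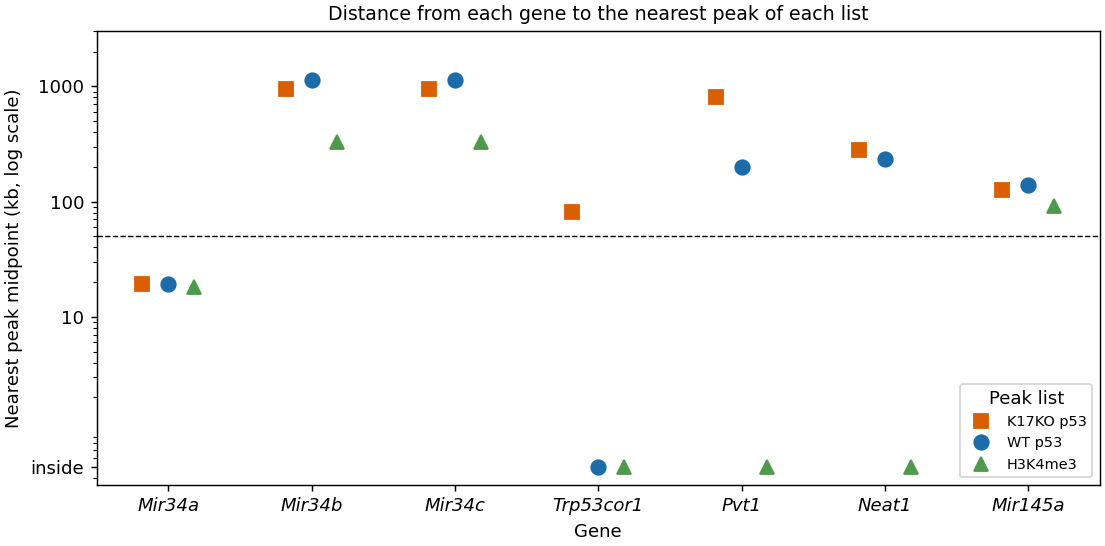
Distance from each gene to the midpoint of the nearest peak of each list (kb, log scale; points at the bottom lie inside the gene), with the 50 kb limit dashed. Mir34a is the only gene with all 3 lists below the limit, and Mir34b and Mir34c are farthest from p53 peaks of WT skin at 1120 kb.

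Near the 50 kb limit, the farthest peak counted was the H3K4me3 peak in Tigd3, 48.4 kb from Neat1. The closest one not counted was an H3K4me3 peak in Stk38 at 50020 bp from Trp53cor1 (1.26-fold), and the closest WT p53 peak not counted lay in Rab44, 58.3 kb from Trp53cor1 (3.86-fold on 7 fragments).

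A list of 20 other noncoding RNA genes linked to p53 was described by the same rule. Of these 1 had a K17KO p53 peak (5.0%, against 7.56% of all genes), 2 had a WT p53 peak (10.0%, against 15.4%) and 11 had an H3K4me3 peak (55.0%, against 32.9%). Most genes of the list are microRNA genes, and of all microRNA genes 6.76%, 11.0% and 37.9% had such peaks. Neighbouring genes are counted on the same peaks, as with Mir192 and Mir194-2, Mir215 and Mir194-1, Mir15a and Mir16-1, and Mir141 and Mir200c for H3K4me3, and the H3K4me3 peaks of Malat1 include some of those of Neat1. The K17KO peak lay 5.92 kb from Gas5, a host gene of small nucleolar RNAs (4.81-fold, 13 fragments over 1.91). The WT peak was a single one, counted for the neighbours Mir29b-2 at 35.6 kb and Mir29c at 36.1 kb (4.72-fold, 8 over 0.906). Lncpint, an lncRNA gene, had 3 H3K4me3 peaks of up to 2.03-fold, and Meg3 and Tug1 had no peak of any list. Among 15 microRNA genes of skin epithelium, 1 had a K17KO p53 peak (Mir24-2, 7.56 kb away, 5.02-fold), 1 a WT p53 peak (Mir21a, 25.0 kb away, 4.52-fold) and 5 an H3K4me3 peak, of which Mir214 and Mir199a-2 share theirs. These are 6.67%, 6.67% and 33.3%, against 6.76%, 11.0% and 37.9% of all microRNA genes. The p53 peaks of both lists had 8 to 13 fragments.

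A further list held 11 protein-coding genes, some neighbours of the members and some direct p53 targets. Of these 5 had a K17KO p53 peak (45.5%, against 7.56% of all genes), 6 a WT p53 peak (54.5%, against 15.4%) and 10 an H3K4me3 peak (90.9%, against 32.9%). The share among protein-coding genes alone was not computed, and the list was chosen with earlier results of these data known. Nothing is therefore read from its shares against those of all genes. The p53 peaks of Gpr157 are those already described at Mir34a, and the K17KO p53 peak near Csnk1a1 is the one nearest to Mir145a. Cdkn1a had 3 WT p53 peaks, not the same 3 as Trp53cor1, and the strongest is the one described at its start. Bax, which promotes apoptosis, had 17 fragments (4.66-fold) in K17KO and 19 (6.7-fold) in WT. Rps27l, a ribosomal protein gene, had 18 in K17KO (6.53-fold) and 18 in WT (4.51-fold). Ccng1, the cyclin G1 gene, had a K17KO p53 peak 14.5 kb away with 16 fragments (5.84-fold). It had 2 WT p53 peaks, the highest fold being 4.72 on 8 fragments at 32.8 kb, a different site from the K17KO one. The position of the other WT p53 peak is not given here, so whether it meets the K17KO peak is left open. Bbc3, the gene of the apoptosis inducer PUMA, had 17 fragments in WT (6.03-fold) and no K17KO p53 peak. Mdm2, whose product degrades p53, had no p53 peak of either genotype. The site upstream of Mir34a had 26 fragments in K17KO and 31 in WT.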

How the data were processed

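Only peak lists were analysed, each with 10 columns and no header. Bowtie2 version 2.2.5, SAMtools version 1.7, MACS2 version 2.1.2 and the build mm10 are named in the submitters' processing notes, with no role or order. Those notes, as used here, give no call threshold. The deposited fold (a ratio) is the summit pileup over background. The caller's −log10 p and −log10 q are used as deposited. The deposited score is 10 times the −log10 p without decimals in every peak. Fragments and background were recovered with fold as fragments plus 1 over background plus 1 and p as the Poisson tail, and 100.0% of peaks in each list matched their −log10 p to within 0.001. Recovery and window assignment were tested on simulated data. The smallest −log10 p was 4.07 for K17KO p53, 3.03 for WT p53 and 3.0 for H3K4me3, and the smallest −log10 q was 1.04, 0.376 and 0.229, so the K17KO list starts at stronger peaks than the other 2.

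Gene positions are from RefSeq (GRCm38.p6, which shares mm10 coordinates) on chromosomes 1 to 19, X and Y. That table gives no strand or exons, so exons were not told apart. Planned peak sequences need a genome and were not used here. Peaks overlapping by at least 1 bp counted as shared. Members, gene lists and rules were chosen with earlier results of these data known. The text names all 7 genes, their window and nearest peaks, the 3 noncoding genes most like Mir34a (4 with a tie), and listed genes with a p53 peak; Lncpint, Meg3, Tug1, Mdm2, microRNA genes named for shared H3K4me3 peaks and the miR-449 genes were named after their values were seen. Python 3.11.15, pandas 2.3.3 and SciPy 1.17.1 were used.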

Additional observations from a re-analysis of the deposited data

How the results depend on the processing

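With a window of 100 kb the K17KO p53 list had 2 peaks at 2 members, the added one being that near Trp53cor1, in place of 1 peak at 1 member. The WT p53 list had 3 peaks with a window of 20 kb and 2 under a q-value limit of 0.01, in place of 5. These 2 are the peaks upstream of Mir34a and at the start of Cdkn1a. The WT p53 member peaks that overlapped an H3K4me3 peak numbered 1 (that at Mir34a), in place of 2, when an overlap of at least 50% of the shorter peak or a q-value limit of 0.01 was applied. All other counts stayed within 1.5 times under every setting tried. The number of WT p53 members was 2 and the K17KO p53 peak at Mir34a was shared with both other lists under each. Ranked by −log10 p, the Mir34a site was in the upper 0.454% of the K17KO list and the upper 0.103% of the WT list, against 1.82% and 0.0344% by fold. No paired analysis was possible because the lists carry no replicate. Fragment counts of 5 to 31 at the p53 peaks limit the precision, and intervals on folds cover the counting error of the fragments only, with the background held fixed.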

Other observations

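Across all RefSeq promoters, the p53 decamer consensus was present in 6 of 117 that overlapped a K17KO p53 peak (5.13%, exact Clopper-Pearson 95% interval 1.90 to 10.8) and in 10 of 65 that met a peak of the WT p53 list (15.4%, interval 7.63 to 26.5). The share was 5.04% (69 of 1368, interval 3.95 to 6.34) of those that met an H3K4me3 peak and 8.36% of all promoters. At least 2 copies were found in 1 of the K17KO promoters and 3 of the WT promoters, the Cdkn1a promoter being among the WT ones. This was computed after the Cdkn1a match was seen, and the difference between the lists was not tested. The intervals treat promoters as independent, although a gene can have several promoters, as Cdkn1a does. The K17KO p53 list also starts at stronger peaks than the WT p53 list.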
